A study of Mus musculus with 93 samples.

Results

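The Wnt gene family of mouse embryonic stem cells was followed here through its ligands, receptors, co-receptors, secreted inhibitors, scaffold proteins and nuclear effectors. The members were taken by gene symbol from the annotation of the count tables: every Wnt ligand gene, every Fzd (Frizzled) receptor gene, Lrp5 and Lrp6, Sfrp1, Sfrp2, Sfrp4 and Sfrp5, Dkk1 to Dkk4, Wif1, Axin1 and Axin2, and Lef1, Tcf7, Tcf7l1 and Tcf7l2. The annotation held no gene under the symbol Sfrp3. The rule found 46 of the 33924 gene names, namely 19 ligands, 10 receptors, 2 co-receptors, 9 inhibitors, 2 scaffold genes and 4 effectors. The rule uses symbols and no measured value.

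The cells were of the R1 line, kept in medium with serum and leukaemia inhibitory factor, and 12 RNA-seq libraries of the 93 samples in the series were used. Set 1 held 3 libraries of cells with Ring1b I53A, a substitution in the catalytic subunit of Polycomb repressive complex 1, and 3 libraries of wild-type cells. Set 2 held 3 libraries of cells labelled as a quadruple knockout (QKO) of the linker histone genes H1b, H1c, H1d and H1e, and 3 libraries of its own wild-type cells. All 4 groups share the R1 background and the medium, and the sources used here do not give the number of clones behind each genotype. The labels do not call the replicates separate cultures, so a p-value here weighs a difference against the spread of the libraries alone, and that spread may be technical. The question put to the members was which of them were higher or lower in I53A cells than in wild type, which in the QKO-labelled cells than in wild type, and where those differences themselves differed.

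Wnt proteins are secreted lipid-modified signals that bind a Frizzled receptor together with Lrp5 or Lrp6. In the canonical branch this stops a complex built on Axin from marking beta-catenin for destruction, and beta-catenin then joins Tcf and Lef proteins on DNA and switches on genes such as Axin2, Lef1 and Dkk1. In mouse embryonic stem cells the pathway is known for supporting self-renewal, largely by relieving repression through Tcf7l1, and in the embryo for forming the primitive streak.

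Depth ranged from 12585621 to 23378930 counts per library. Levels are given as CPM, the count of a gene relative to the library total, scaled over all 12 libraries, means carry the SD over n = 3 libraries, and levels of different genes are compared only as CPM per kilobase of annotated exon. Replicate 3 of both set 1 groups stood apart from replicates 1 and 2, since chi-square divided by its degrees of freedom was 21.2 to 27.3 in pairs with replicate 3 and 4.06 (I53A) and 2.93 (wild type) between replicates 1 and 2. All 17 members called in set 1 passed the test in replicates 1 and 2 alone, but they had been chosen on the same libraries. All 17 also had the same sign there and in the replicate 3 pair, which was fixed in advance since none of their groups overlapped. Rnf2, which encodes Ring1b, stood at 81.0 to 93.5 CPM in I53A and at 166 to 182 CPM in wild type, but gene counts do not read the substitution. Of the genes named by the QKO label, Hist1h1b had 53 to 72 counts in libraries labelled QKO and 2 to 9 in wild type, and Hist1h1c had 7.82 to 9.96 CPM in libraries labelled QKO and 8.75 to 10.1 CPM in wild type, while Hist1h1d and Hist1h1e had at most 15 counts in any library. The transcripts therefore do not show the labelled loss. For Hist1h1b, Hist1h1d and Hist1h1e a loss could hardly have shown, since they were this low in wild type. Gene counts also do not read a small change within a gene, so the knockout was not tested here. These libraries are called by their label throughout. The 10 embryonic stem cell markers were detected in every library and summed to 5234 to 5577 CPM in I53A against 5960 to 6520 CPM in wild type, and to 8350 to 8484 CPM in libraries labelled QKO against 7220 to 7351 CPM in wild type.

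Markers of other cell types moved with the genotypes. For the counts of calls below, 18.1% of all genes tested were called higher and 17.4% lower in set 1. In set 2 these shares were 28.7% and 29.0%. All 10 genes of a primitive and parietal endoderm list were called higher in I53A, and their summed level was 2117 to 2197 CPM in I53A against 121 to 131 CPM in wild type, with none at 0 in these 6 libraries. In set 2 the same list, with 4 of 8 tested called higher, summed to 150 to 159 CPM in libraries labelled QKO and 121 to 139 CPM in wild type, where Foxa2 was at 0 in replicates 2 and 3. Primitive streak and mesoderm genes (4 of 6 tested called higher in set 1) summed to 32.8 to 37.9 CPM in I53A against 11.4 to 14.7 CPM in wild type, and neural genes (2 of 3 higher, 1 lower) to 26.9 to 30.3 CPM in I53A against 10.5 to 12.2 CPM in wild type. Trophoblast genes (3 of 5 higher) summed to 99.5 to 108.6 CPM in I53A against 31.8 to 33.4 CPM in wild type, with Cdx2 at 0 in wild-type replicates 1 and 2, and fibroblast feeder genes (5 of 5 higher) to 58.3 to 63.0 CPM in I53A against 23.9 to 25.3 CPM in wild type. In set 2 the neural list (1 of 2 higher, 1 lower) summed to 26.7 to 29.3 CPM in libraries labelled QKO against 13.4 to 13.9 CPM in wild type, and the feeder list (3 of 4 higher) to 43.4 to 44.4 CPM in libraries labelled QKO against 24.4 to 24.6 CPM in wild type. The streak and mesoderm list (0 of 4 higher, 2 lower) summed there to 10.2 to 11.6 CPM in libraries labelled QKO against 18.3 to 20.2 CPM in wild type, and the trophoblast list (1 of 4 higher, 2 lower) to 25.8 to 28.1 CPM in libraries labelled QKO against 47.1 to 55.8 CPM in wild type. Of the feeder genes, Lum was at 0 in all 3 I53A libraries and in wild-type replicates 1 and 2 of set 1. Dcn was at 0 in all 3 wild-type libraries of set 1, and Dcn and Lum were at 0 in every library of set 2. The part of such cells in the results on Wnt genes was not tested, and in bulk RNA fewer cells of a type and less RNA per cell cannot be told apart.

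In I53A cells, 12 members rose and 5 fell, 20 more did not pass the test, and 9 did not pass the filter on low counts. The call was an adjusted p under 0.05 in edgeR's quasi-likelihood test over all genes tested, and by that rule 35.5% of all 15536 genes tested were called, 18.1% as higher and 17.4% as lower. The 12 that rose were the ligands Wnt4, Wnt6, Wnt7b, Wnt8a, Wnt11 and Wnt16, the receptor Fzd10, the inhibitors Dkk1 and Sfrp2, both Axin genes and Lef1. The 5 that fell were Fzd7, Lrp5, Sfrp1, Sfrp4 and Tcf7l1. The median log2 fold change of the 37 tested members was 0.32, and that of all genes tested was -0.0010. Of the 37, 10 passed the filter through the I53A libraries alone and 1 through the wild-type libraries alone, so a direction was built into those members and the count and median are descriptions. With the set 1 replicate numbers as a block, the call count over all genes was 4371 higher and 4427 lower, against 2808 and 2704 without it.

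In libraries labelled QKO, 15 members rose, 7 fell, 11 more did not pass the test and 13 did not pass the filter. By the same edgeR rule 57.7% of all 15439 genes tested were called in set 2, 28.7% as higher and 29.0% as lower, so a call was more common there for any gene. The 15 that rose were the ligands Wnt2b, Wnt6, Wnt7a, Wnt8b, Wnt11 and Wnt16, the receptors Fzd1, Fzd3, Fzd4, Fzd5, Fzd6 and Fzd10, the inhibitors Sfrp2 and Wif1, and Lef1. The 7 that fell were Fzd2, Fzd7, Fzd9, Lrp5, Sfrp1, Sfrp4 and Axin1. The median log2 fold change of the 33 tested members was 0.13, and that of all genes tested was -0.0033. Of the 33, 6 passed the filter through the libraries labelled QKO alone.

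**Figure D1:**
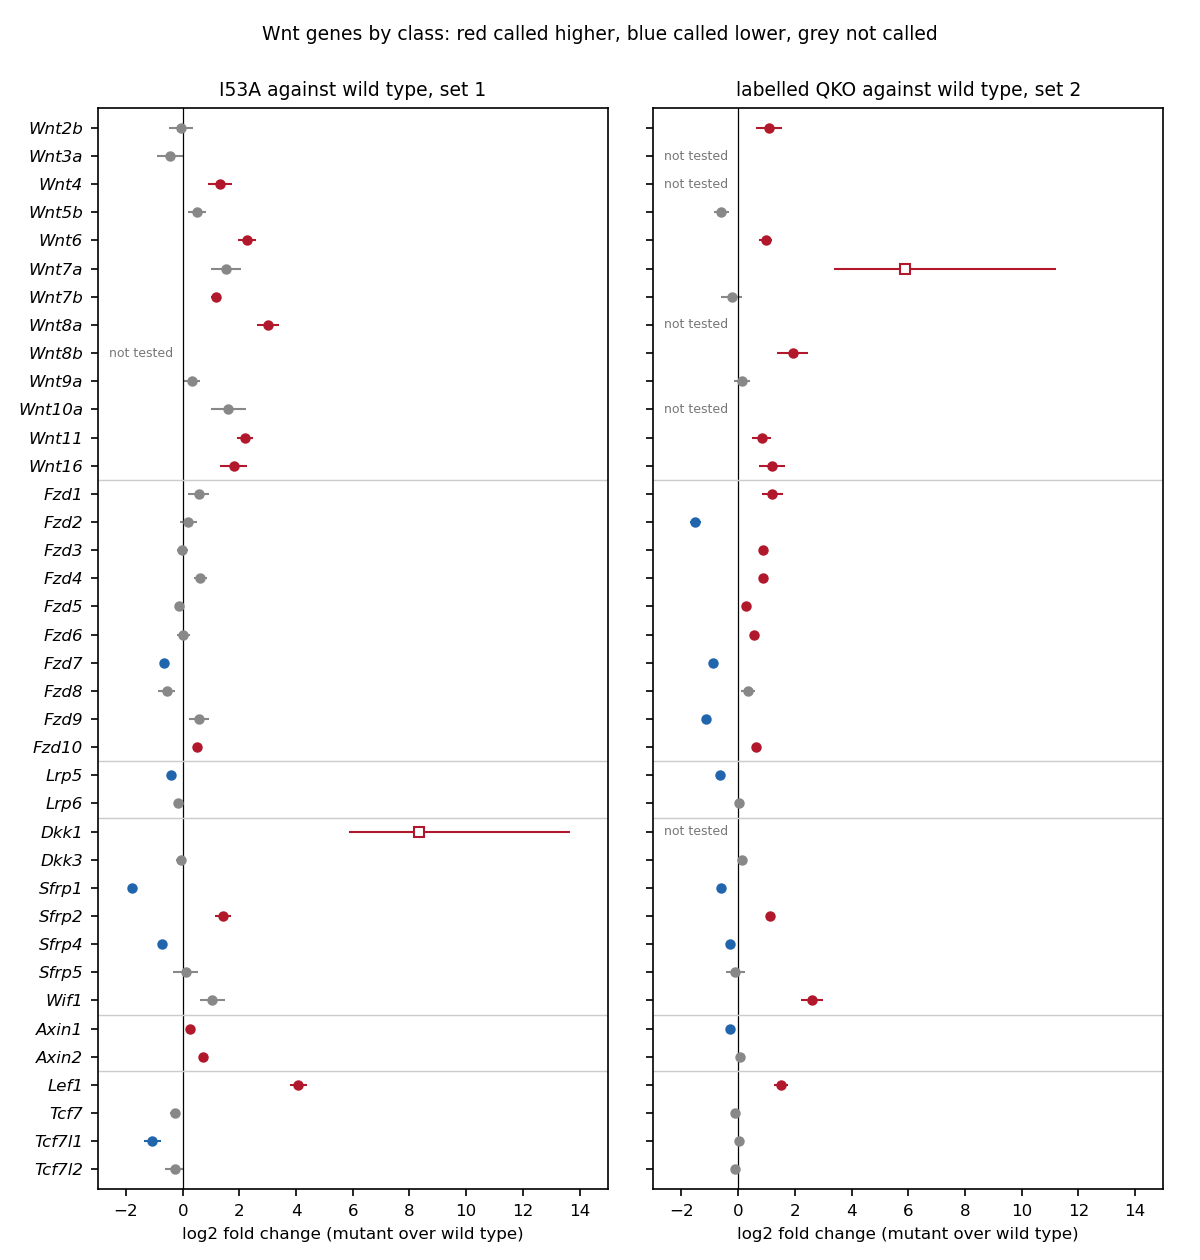
Log2 fold change of each Wnt gene tested in at least 1 comparison, I53A over wild type (left) and libraries labelled QKO over wild type (right), by class from ligands at the top to effectors at the bottom; bars are the SE. Open squares mark Dkk1 (left) and Wnt7a (right), where wild type had 1 count, and show the ratio of summed counts with its exact 95% interval. Called ligands lie to the right of 0 in both panels, some of them tested through the mutant libraries alone, while the Frizzled genes spread to both sides in set 2.

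Among the ligands of set 1, 6 of the 12 tested rose in I53A, beside 18.1% of all genes tested. Of these 6, Wnt4, Wnt8a and Wnt16 passed the filter on low counts through the I53A libraries alone, as did Wnt2b, Wnt7a and Wnt10a, so the count is a description, and Wnt6, Wnt7b and Wnt11 passed it in both groups. The sum over all 19 ligand genes was 13.5 ± 1.92 CPM per kb in I53A and 5.02 ± 0.602 CPM per kb in wild type. Of the I53A sum Wnt6 held 32.9 ± 4.02% and Wnt7b 24.4 ± 1.28%. Wnt6 (mm9 chr1:74818466-74831893, + strand) had 8.08, 7.81 and 11.9 CPM in I53A, against 1.33, 1.48 and 2.99 CPM in wild type. Every I53A library lay above every wild-type library, and replicate 3 was the highest of each group. The log2 fold change of Wnt6 was 2.27 ± 0.33 (SE; edgeR adjusted p = 0.0013). Wnt6 is a ligand known in the mouse from early epithelia. Beside it, the endoderm list summed to 2117 to 2197 CPM in I53A against 121 to 131 CPM in wild type.

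Wnt7b (chr15:85365869-85412251, - strand), a ligand of placental, lung and kidney development in the mouse, had 15.2, 12.4 and 16.0 CPM in I53A, against 6.998, 5.39 and 6.77 CPM in wild type. The groups did not overlap, and the log2 fold change was 1.17 ± 0.17 (edgeR adjusted p = 0.00113). An exon of Wnt7b overlaps AU022754 on the other strand, and the counting used no strand, so reads of the 2 genes cannot be told apart. Wnt8a, a ligand expressed in the early posterior embryo, had 2.06, 1.51 and 1.79 CPM in I53A, against 0.212, 0.158 and 0.285 CPM in wild type. That is 91 counts against 11, with a log2 fold change of 3.01 ± 0.39 (edgeR adjusted p = 0.000719). Wnt8a thus had the largest fitted change of the ligands called in set 1.

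Wnt11 (chr7:105983622-106003705, + strand), a ligand best known for signalling without beta-catenin during gastrulation and in heart and kidney, had 4.12, 3.45 and 2.98 CPM in I53A, against 0.795, 0.581 and 0.927 CPM in wild type. The lowest I53A library was more than 3 times the highest wild-type library, and the log2 fold change was 2.19 ± 0.28 (edgeR adjusted p = 0.000707). Its exons overlap Gm8398 on the other strand. Wnt16, known from bone and blood stem cell formation, had 0.686, 0.808 and 0.597 CPM in I53A, against 0.159, 0.158 and 0.285 CPM in wild type (log2 fold change 1.80 ± 0.47, edgeR adjusted p = 0.0189). Wnt4, a ligand of kidney and female reproductive tract development, had 1.06, 0.969 and 1.64 CPM in I53A, against 0.371, 0.370 and 0.713 CPM in wild type (1.33 ± 0.43, edgeR adjusted p = 0.0425). These were the weakest ligand calls of set 1, and each rested on 60 counts or fewer in I53A. Wnt4 lost its call when any I53A replicate or wild-type replicate 1 or 2 was left out (adjusted p = 0.0724 to 0.143), and Wnt16 when replicate 1 or 2 of either group was left out (0.0635 to 0.0819).

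The 6 tested ligands that did not pass in set 1 were Wnt2b, Wnt3a, Wnt5b, Wnt7a, Wnt9a and Wnt10a, with log2 fold changes from -0.43 (Wnt3a) to 1.6003 (Wnt10a). Wnt10a averaged 1.74 ± 1.21 CPM in I53A and 0.556 ± 0.298 CPM in wild type, and Wnt7a 0.952 ± 0.244 CPM in I53A and 0.319 ± 0.231 CPM in wild type. The groups of both did not overlap, and both were called with the replicate block (edgeR adjusted p = 0.0102 for Wnt10a and 0.0203 for Wnt7a). Wnt3a, the ligand added to cultures to support self-renewal, averaged 0.581 ± 0.292 CPM in I53A and 0.778 ± 0.197 CPM in wild type. Wnt3, the ligand that starts primitive streak formation in the mouse, did not pass the filter, with 11 counts in I53A and 2 in wild type. Wnt2 had no count in any of the 12 libraries, and Wnt1 had 1 count in all.

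In set 2, 6 of the 9 tested ligands rose in libraries labelled QKO, beside 28.7% of all genes tested. Of these 6, Wnt2b, Wnt7a, Wnt8b and Wnt16 passed the filter on low counts through the libraries labelled QKO alone, so the count is a description, and Wnt6 and Wnt11 passed it in both groups. The ligand sum was 5.72 ± 0.431 CPM per kb in libraries labelled QKO and 3.52 ± 0.268 CPM per kb in wild type. Wnt6 had 5.22, 3.67 and 3.85 CPM in libraries labelled QKO, against 2.75, 1.87 and 2.01 CPM in wild type. The groups did not overlap, and the log2 fold change was 0.97 ± 0.21 (edgeR adjusted p = 0.000122). Wnt7a (chr6:91313975-91361357, - strand), which sets the dorsal side of the mouse limb, had 0.989, 1.31 and 1.09 CPM in libraries labelled QKO, while wild type had 0, 0 and 0.0490 CPM. These are 64 counts against 1, a ratio of 59.7 with an exact 95% interval of 10.3 to 2394 for counting error only (edgeR adjusted p = 1.5e-08). No other ligand of set 2 was this close to absent in wild type and called.

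Wnt8b, a ligand of the forebrain and hippocampus, had 0.854, 0.654 and 0.641 CPM in libraries labelled QKO, against 0.183, 0.291 and 0.0981 CPM in wild type (log2 fold change 1.93 ± 0.54, edgeR adjusted p = 0.00201). The neural marker list beside it summed to 26.7 to 29.3 CPM in libraries labelled QKO and 13.4 to 13.9 CPM in wild type. Wnt2b had 0.944, 0.851 and 0.740 CPM in libraries labelled QKO, against 0.734, 0.291 and 0.196 CPM in wild type, with a log2 fold change of 1.10 ± 0.46 (edgeR adjusted p = 0.0369). Wnt16 had 0.809, 0.916 and 0.740 CPM in libraries labelled QKO, against 0.183, 0.583 and 0.294 CPM in wild type (1.20 ± 0.47, edgeR adjusted p = 0.0242). Wnt11 had 1.03, 2.36 and 1.82 CPM in libraries labelled QKO, against 1.04, 1.17 and 0.686 CPM in wild type, and here the groups overlapped (0.83 ± 0.34, edgeR adjusted p = 0.0311). These last 3 calls were fragile. In edgeR, Wnt2b lost its call without any 1 of the libraries except wild-type replicate 1 (adjusted p = 0.0516 to 0.226), Wnt16 without QKO replicate 1 or 2 or wild-type replicate 1 or 3 (0.0601 to 0.128), and Wnt11 without QKO replicate 2 or 3 or wild-type replicate 3 (0.0919 to 0.208). With DESeq2 the adjusted p was 0.106, 0.0718 and 0.0683 for Wnt2b, Wnt16 and Wnt11.

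Among the ligands below the filter in set 2, Wnt8a, Wnt4 and Wnt9b had most of their counts in libraries labelled QKO. Wnt8a had 39 counts in libraries labelled QKO and 4 in wild type, and its log2 difference of effects, I53A less QKO, was -0.02 (edgeR adjusted p = 0.953). Wnt4 had 9 counts in libraries labelled QKO and 1 in wild type, a ratio of 8.39 with an exact 95% interval of 1.16 to 368. Wnt9b had 10 counts in libraries labelled QKO and none in wild type, at least 3.11-fold higher when wild type is set to a group total of 3 counts. Wnt7b had the smallest adjusted p of the ligands for a difference between the genotypes. It averaged 0.912 ± 0.323 CPM in libraries labelled QKO and 1.05 ± 0.254 CPM in wild type of set 2, was not called there, and the difference of effects was 1.41 ± 0.36 (edgeR adjusted p = 0.00693). The wild types of the sets also differed for Wnt7b, which averaged 6.39 ± 0.872 CPM in wild type of set 1. The gain of Wnt6 was larger in I53A by 1.34 ± 0.41 (edgeR adjusted p = 0.0191) and that of Wnt11 by 1.37 ± 0.48 (0.0375), but leaving out 1 library ended the first in 5 of 12 cases (0.0502 to 0.0656) and the second in 8 of 12 (0.0554 to 0.105). That of Wnt7a was smaller in I53A (edgeR adjusted p = 0.00923), a difference that rests on the single wild-type count of set 2. In this interaction over the 12 libraries, 36.1% of all 16501 genes tested were called.

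**Figure D2:**
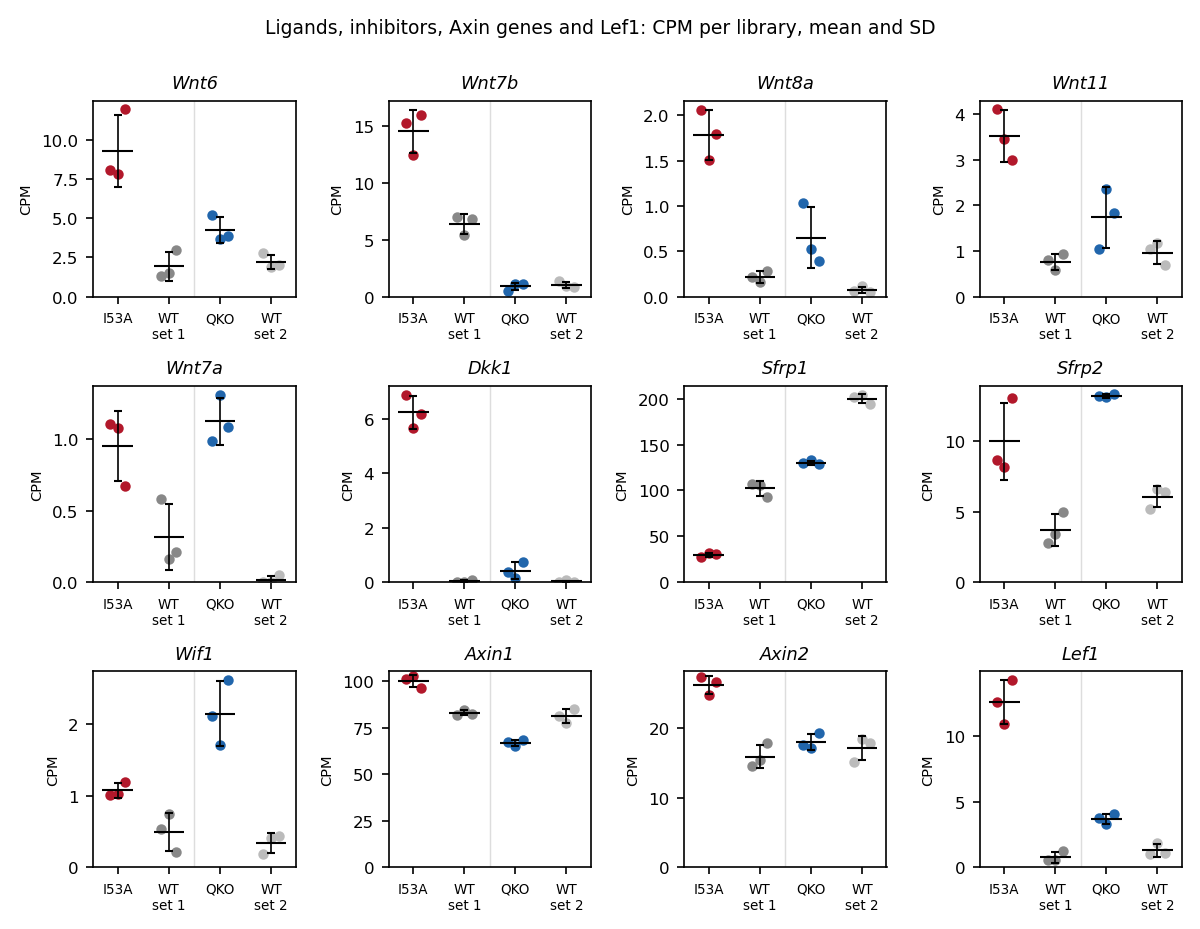
CPM of 12 ligand, inhibitor, scaffold and effector genes in each library (points), with the group mean and SD (bars), for I53A and its wild type and for libraries labelled QKO and their wild type; each panel has its own axis from 0. Dkk1 and Lef1 are high in the 3 I53A libraries, Sfrp1 is low in them, and Axin1 lies above its wild type in I53A and below it in QKO.

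Of the 10 Frizzled genes, 1 rose and 1 fell in I53A (20.0%), beside 35.5% of all genes tested that were called in set 1. In libraries labelled QKO 6 rose and 3 fell (90.0%), beside 57.7% of all genes tested that were called in set 2. Fzd5 (chr1:64777134-64784324, - strand) had the highest level per length in all 4 groups. It had 194, 196 and 226 CPM in I53A, against 201, 197 and 265 CPM in wild type, and the groups overlapped (log2 fold change -0.12 ± 0.13, edgeR adjusted p = 0.512). In libraries labelled QKO it had 309.5, 288 and 305 CPM, against 235, 251 and 267 CPM in wild type, a log2 fold change of 0.27 ± 0.04 (edgeR adjusted p = 7.65e-07). Fitted with all 12 libraries, that call was just missed (edgeR adjusted p = 0.0517). Fzd5 is a receptor required in the mouse yolk sac.

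Fzd7 (chr1:59538991-59543791, + strand) was second per length in every group and fell in both genotypes. It had 64.6, 64.7 and 68.2 CPM in I53A, against 99.5, 99.0 and 110.4 CPM in wild type, and 77.0, 81.1 and 80.9 CPM in libraries labelled QKO, against 144, 144 and 154 CPM in wild type. Both pairs of groups were wide apart relative to their spread, with log2 fold changes of -0.66 ± 0.08 (edgeR adjusted p = 0.000487) and -0.88 ± 0.05 (edgeR adjusted p = 2.4e-22). Fzd7 is a receptor that human embryonic stem cells are known to use for self-renewal. The fall was 0.24 ± 0.09 less in I53A (edgeR adjusted p = 0.0399), and 10 of the 12 fits that left out 1 library lost that difference (0.0504 to 0.148).

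With Fzd5 up and Fzd7 down, the makeup of the receptor class shifted in set 2 while its sum hardly moved. The 10 genes summed to 86.2 ± 2.00 CPM per kb in libraries labelled QKO and 88.1 ± 3.72 CPM per kb in wild type. Of that sum Fzd5 held 50.5 ± 0.724% in libraries labelled QKO and 41.2 ± 1.10% in wild type, and Fzd7 held 19.3 ± 0.930% in libraries labelled QKO and 34.8 ± 0.265% in wild type. In I53A the shares were 49.7 ± 1.32% for Fzd5 and 23.0 ± 0.666% for Fzd7, against 47.9 ± 2.04% for Fzd5 and 32.4 ± 1.95% for Fzd7 in wild type. Fzd7 thus held a smaller share in each mutant library than in any wild-type library of its set.

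Of the other Frizzled genes, Fzd2, Fzd9 and Fzd1 changed most in set 2. Fzd2 had 2.43, 2.36 and 1.78 CPM in libraries labelled QKO, against 5.08, 6.005 and 7.50 CPM in wild type (log2 fold change -1.51 ± 0.19, edgeR adjusted p = 2.49e-09). Fzd9 had 4.72, 5.56 and 4.78 CPM in libraries labelled QKO, against 10.3, 10.9 and 11.9 CPM in wild type (-1.15 ± 0.13, edgeR adjusted p = 1.82e-10). Neither gene's groups overlapped. Fzd1 had 1.03, 1.77 and 1.38 CPM in libraries labelled QKO, against 0.367, 0.700 and 0.686 CPM in wild type (1.20 ± 0.37, edgeR adjusted p = 0.00505). In set 1, Fzd2 had 6.76, 4.63 and 10.9 CPM in I53A, against 5.99, 6.18 and 6.85 CPM in wild type. Fzd9 had 4.54, 2.80 and 6.04 CPM in I53A, against 2.92, 1.95 and 4.06 CPM in wild type. Fzd1 had 1.06, 0.862 and 1.19 CPM in I53A, against 0.795, 0.792 and 0.428 CPM in wild type. None of the 3 was called there, although the Fzd1 groups did not overlap and Fzd9 was called with the replicate block (edgeR adjusted p = 0.0326). In both sets Fzd1 passed the filter through the mutant libraries alone, so a direction was built into its tests. The effects on Fzd2 and Fzd9 differed between the genotypes, by 1.72 ± 0.37 (edgeR adjusted p = 0.00228) and 1.73 ± 0.36 (0.00169), while that on Fzd1 was not shown to (0.389).

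Fzd3 and Fzd6, both known from planar cell polarity in the mouse, rose in libraries labelled QKO. Fzd3 averaged 19.9 ± 1.03 CPM there and 10.9 ± 0.754 CPM in wild type (log2 fold change 0.88), and Fzd6 averaged 19.0 ± 1.49 CPM in libraries labelled QKO and 12.9 ± 0.997 CPM in wild type (0.57). In set 1 Fzd3 averaged 8.98 ± 1.27 CPM in I53A and 8.98 ± 2.00 CPM in wild type. The difference of effects was called for Fzd3 (-0.86 ± 0.21, edgeR adjusted p = 0.00459) and not for Fzd6 (edgeR adjusted p = 0.11). Fzd4, the receptor for the retinal vessel signal Norrin, averaged 6.31 ± 0.441 CPM in libraries labelled QKO and 3.39 ± 0.582 CPM in wild type, and 6.53 ± 0.744 CPM in I53A against 4.17 ± 1.12 CPM in wild type. Its log2 fold change was 0.89 (edgeR adjusted p = 1.29e-05) in set 2 and 0.63 (edgeR adjusted p = 0.0517, or 0.00731 with the replicate block) in set 1. Fzd10 rose in both, to 18.0 ± 0.651 CPM in I53A against 12.5 ± 1.69 CPM in wild type, and to 36.4 ± 2.31 CPM in libraries labelled QKO against 23.5 ± 2.84 CPM in wild type. The I53A call of Fzd10 (0.52 ± 0.13, edgeR adjusted p = 0.0168) was lost without I53A replicate 1 or wild-type replicate 1 or 2 (0.0621 to 0.0642). Fzd8 was called in neither comparison.

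**Figure D3:**
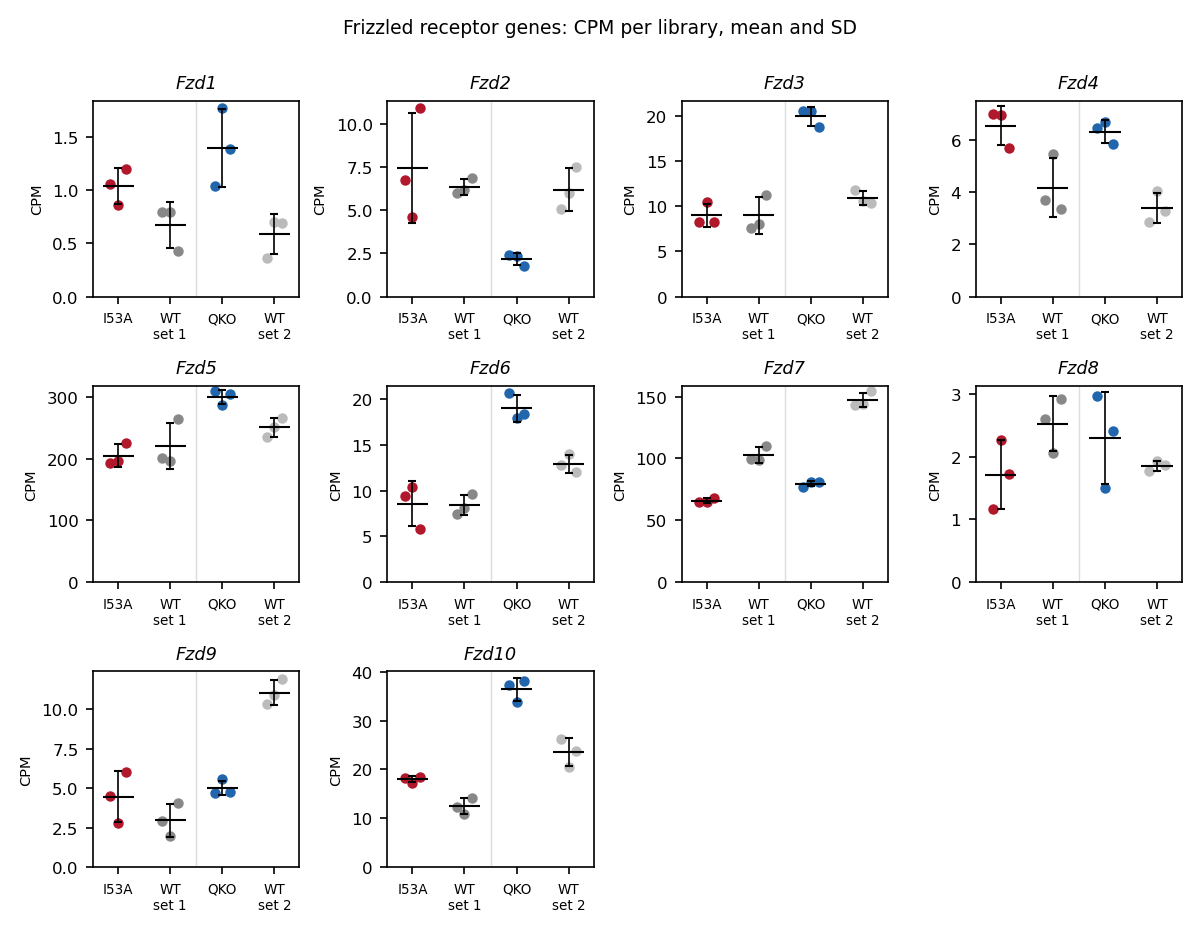
CPM of the 10 Frizzled receptor genes in each library (points), with the group mean and SD (bars); each panel has its own axis from 0. Fzd7 lies below its wild type in both mutants, Fzd2 and Fzd9 lie below theirs in the libraries labelled QKO, and Fzd3 and Fzd6 lie above theirs in the libraries labelled QKO.

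Of the co-receptors, Lrp5 fell in both genotypes and Lrp6 was called in neither. By group mean Lrp6 had the higher level per length except in wild type of set 2, with 12.5 ± 0.815 CPM per kb in I53A, 13.998 ± 0.355 in wild type of set 1, 12.9 ± 0.0117 in libraries labelled QKO and 12.8 ± 0.476 in wild type of set 2. Within each wild-type group the order of Lrp5 and Lrp6 differed between libraries. In CPM, Lrp6 had 128, 126 and 114 in I53A, against 134, 141 and 137 in wild type, and 127 in each library labelled QKO, against 131, 126 and 121 in wild type. In set 1 the groups did not overlap and the log2 fold change was -0.18 ± 0.07 (edgeR adjusted p = 0.0842, or 0.00478 with the replicate block). Lrp5 averaged 54.8 ± 1.81 CPM in I53A and 71.2 ± 6.12 CPM in wild type, with a log2 fold change of -0.40 ± 0.09 (edgeR adjusted p = 0.0102). It averaged 44.7 ± 0.286 CPM in libraries labelled QKO and 69.3 ± 10.7 CPM in wild type, with a log2 fold change of -0.63 ± 0.08 (edgeR adjusted p = 1.2e-06). Neither pair of Lrp5 groups overlapped, and the effects were not shown to differ between the genotypes (edgeR adjusted p = 0.159).

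Among the secreted inhibitors the calls ran both ways in each genotype, with 2 higher and 2 lower of 7 tested in I53A and 2 higher and 2 lower of 6 tested in libraries labelled QKO. Of all genes tested, 35.5% were called in set 1 and 57.7% in set 2. Dkk1 in set 1 and Wif1 in both sets passed the filter on low counts through the mutant libraries alone, so these counts are descriptions. Dkk1 (chr19:30620353-30624155, - strand), which blocks Lrp5 and Lrp6 and is itself a target of the pathway, had 6.86, 5.66 and 6.19 CPM in I53A, against 0, 0 and 0.0713 CPM in wild type. These are 318 counts against 1, a ratio of 324 with an exact 95% interval of 57.7 to 12821 for counting error only (edgeR adjusted p = 2.34e-05). Dkk1 was thus near absent in wild type and the third of its class per length in I53A, where it made up 13.9 ± 2.04% of the inhibitor sum per length. In libraries labelled QKO it had 0.360, 0.131 and 0.740 CPM, against 0, 0.0583 and 0 CPM in wild type, which is 25 counts against 1, a ratio of 23.3 (3.82 to 957), and it did not pass the filter there. The difference between the genotypes' effects on Dkk1 was not called (edgeR adjusted p = 0.262), with 1 count in each wild type. The endoderm list beside Dkk1 stood at 2117 to 2197 CPM in I53A and at 150 to 159 CPM in libraries labelled QKO.

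Sfrp1 (chr8:24521974-24560104, + strand), which binds Wnt proteins outside the cell, was the leading inhibitor per length in all 4 groups and fell in both genotypes. It had 27.2, 31.3 and 30.2 CPM in I53A, against 107, 106 and 92.6 CPM in wild type. It had 129.7, 133 and 129 CPM in libraries labelled QKO, against 202, 204 and 195 CPM in wild type. Both falls were far larger than the spread, with log2 fold changes of -1.80 ± 0.09 (edgeR adjusted p = 7.8e-06) and -0.61 ± 0.04 (edgeR adjusted p = 9.89e-18), and the fall was greater in I53A (difference of effects -1.17 ± 0.10, edgeR adjusted p = 4.66e-07). Sfrp1 held 36.4 ± 2.81% of the inhibitor sum per length in I53A and 76.0 ± 3.17% in wild type, and 67.7 ± 0.671% in libraries labelled QKO and 81.7 ± 0.912% in wild type. The sum itself was 18.6 ± 1.51 CPM per kb in I53A against 30.7 ± 1.29 in wild type, and 44.0 ± 0.812 CPM per kb in libraries labelled QKO against 56.1 ± 1.32 in wild type.

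Sfrp2, a relative of Sfrp1, moved the other way in both genotypes. Sfrp2 had 8.71, 8.19 and 13.1 CPM in I53A, against 2.81, 3.38 and 4.99 CPM in wild type (log2 fold change 1.42 ± 0.27, edgeR adjusted p = 0.00476). It had 13.2, 13.2 and 13.4 CPM in libraries labelled QKO, against 5.20, 6.65 and 6.37 CPM in wild type (1.13 ± 0.12, edgeR adjusted p = 2.95e-11). The groups did not overlap in either set, and the effects were not shown to differ (edgeR adjusted p = 0.443). An exon of Sfrp2 overlaps Gm16790 on the other strand. Wif1, which binds Wnt proteins directly, had 2.11, 1.70 and 2.61 CPM in libraries labelled QKO, against 0.183, 0.408 and 0.441 CPM in wild type (2.60 ± 0.38, edgeR adjusted p = 4.91e-08). It had 1.00, 1.02 and 1.19 CPM in I53A, against 0.530, 0.740 and 0.214 CPM in wild type, where the groups did not overlap but the call was missed (1.04 ± 0.44, edgeR adjusted p = 0.0989). The difference of effects on Wif1 lay near the threshold (-1.55 ± 0.59, edgeR adjusted p = 0.0546). In both sets Wif1 passed the filter through the mutant libraries alone, so a direction was built into its tests. Sfrp4 averaged 7.53 ± 1.23 CPM in I53A and 12.4 ± 0.547 CPM in wild type (-0.73 ± 0.15, edgeR adjusted p = 0.00637), and 13.0 ± 1.89 CPM in libraries labelled QKO and 15.6 ± 0.854 CPM in wild type. In set 2 its groups overlapped, and the call (-0.27 ± 0.11, edgeR adjusted p = 0.0237) was lost without QKO replicate 1 (0.252) or wild-type replicate 1 (0.0708) and with DESeq2 (0.0705). Dkk3 and Sfrp5 were called in neither comparison, and Dkk2 and Dkk4 did not pass the filter, with at most 11 counts in any group.

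**Figure D4:**
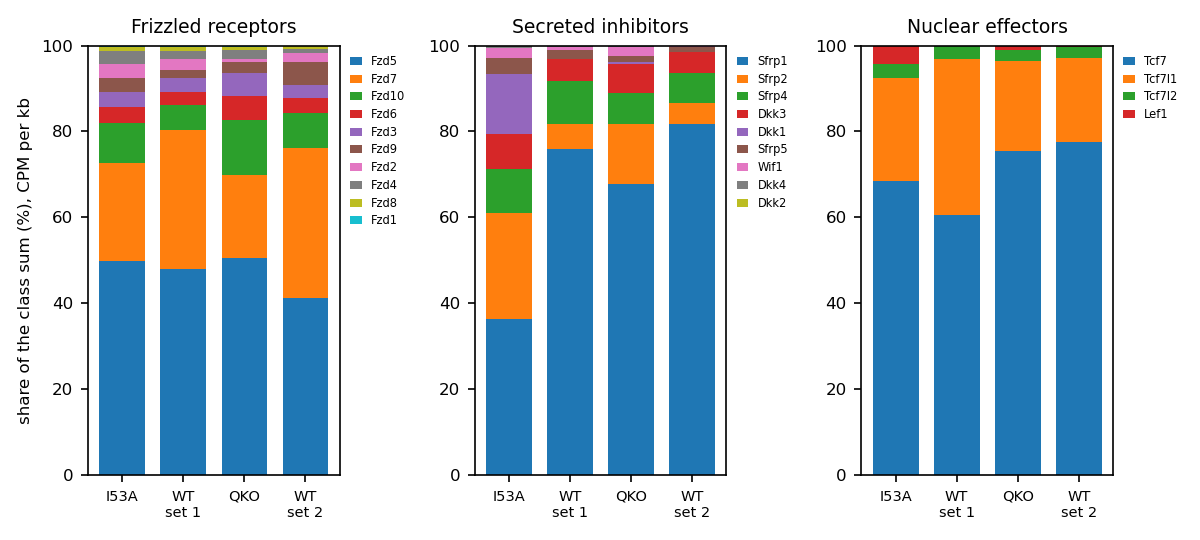
Share of each gene in the summed level of its class, in CPM per kb, as group means, for the Frizzled receptors, the secreted inhibitors and the nuclear effectors in I53A, its wild type, libraries labelled QKO and their wild type; genes stack from the bottom in the order of the legend. Sfrp1 holds 36.4% of the inhibitor sum in I53A against 76.0% in wild type, and Fzd7 19.3% of the receptor sum in libraries labelled QKO against 34.8% in wild type.

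The scaffold gene Axin1 was the only member called in opposite directions in the 2 comparisons, among the 32 members tested in both. Axin1 (chr17:26275631-26332756, + strand) encodes the core of the beta-catenin destruction complex. It had 101, 103 and 96.1 CPM in I53A, against 81.9, 84.5 and 82.5 CPM in wild type, and 67.3, 65.0 and 68.4 CPM in libraries labelled QKO, against 81.2, 77.5 and 85.1 CPM in wild type. Neither pair of groups overlapped, and the wild types of the sets were alike, at 83.0 ± 1.35 and 81.3 ± 3.79 CPM. The log2 fold changes were small, 0.25 ± 0.07 in I53A (edgeR adjusted p = 0.0179) and -0.28 ± 0.05 in libraries labelled QKO (edgeR adjusted p = 1.4e-05), and their difference was 0.55 ± 0.08 (edgeR adjusted p = 9.65e-05). The I53A call was lost without replicate 1 or 2 of either group (0.0589 to 0.0801) and with no filter on low counts (0.0509).

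Axin2, the scaffold gene that the pathway itself switches on, rose in I53A and was not called in set 2. It averaged 26.3 ± 1.29 CPM in I53A and 15.9 ± 1.69 CPM in wild type, with a log2 fold change of 0.71 ± 0.11 (edgeR adjusted p = 0.00198). It averaged 18.0 ± 1.13 CPM in libraries labelled QKO and 17.2 ± 1.76 CPM in wild type, with a log2 fold change of 0.08 ± 0.09 (edgeR adjusted p = 0.511). The difference of effects was called, at 0.65 ± 0.15 (edgeR adjusted p = 0.00299). An exon of Axin2 overlaps Gm11670 on the other strand.

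Of the nuclear effectors, Lef1 rose in both genotypes, Tcf7l1 fell in I53A, and Tcf7 and Tcf7l2 were called in neither. Lef1 (chr3:130813389-130927274, + strand), a DNA-binding partner of beta-catenin and a known target of the pathway, had 12.6, 10.9 and 14.2 CPM in I53A, against 0.530, 0.528 and 1.21 CPM in wild type. It had 3.73, 3.27 and 4.04 CPM in libraries labelled QKO, against 0.979, 1.87 and 1.08 CPM in wild type. In both sets every mutant library lay above every wild-type library, and the level reached in I53A was the highest of the 4 groups. The log2 fold changes were 4.08 ± 0.30 (edgeR adjusted p = 4.42e-05) and 1.51 ± 0.25 (edgeR adjusted p = 9.64e-07), and the gain in I53A was larger by 2.60 ± 0.41 (edgeR adjusted p = 0.000195). In replicates 1 and 2 alone the I53A change of Lef1 was 4.44, and in the replicate 3 pair 3.11, computed there on log2 of CPM plus 0.5. Lef1 held 4.19 ± 0.310% of the effector sum per length in I53A, against 0.177 ± 0.0425% in wild type.

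Tcf7l1 (chr6:72576372-72739248, - strand), the main Tcf repressor of the pluripotency programme in mouse embryonic stem cells, had 27.9, 21.4 and 34.2 CPM in I53A, against 45.5, 44.3 and 84.1 CPM in wild type. The groups did not overlap, and replicate 3 of wild type was far above the other two. The log2 fold change was -1.08 ± 0.30 (edgeR adjusted p = 0.0285). It was -0.88 in replicates 1 and 2 alone (edgeR adjusted p = 7.64e-09) and -1.29 in the replicate 3 pair, and the call was lost without I53A replicate 1 (0.0801) or 2 (0.0841) and with no filter (0.106). In libraries labelled QKO it had 26.7, 23.8 and 28.8 CPM, against 26.7, 24.7 and 26.6 CPM in wild type (0.03 ± 0.08, edgeR adjusted p = 0.737). The difference of effects was called (-1.09 ± 0.35, edgeR adjusted p = 0.0325) but lost in 7 of the 12 fits that left out 1 library (0.0571 to 0.0669). The wild types of the sets differed for this gene, with 58.0 ± 22.7 CPM in set 1 and 26.0 ± 1.15 CPM in set 2. An exon of Tcf7l1 overlaps Gm15401 on the other strand.

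Tcf7 had the highest level per length of the effectors in all 4 groups, with 23.9 ± 4.68 CPM per kb in I53A, 28.3 ± 5.21 in wild type of set 1, 28.6 ± 1.64 in libraries labelled QKO and 30.9 ± 1.44 in wild type of set 2. In CPM it had 60.8, 57.6 and 81.7 in I53A, against 73.5, 67.9 and 95.4 in wild type, and 83.4, 74.7 and 81.4 in libraries labelled QKO, against 83.2, 85.0 and 90.9 in wild type. Both pairs of groups overlapped, and in set 1 replicate 3 was the highest of each group. The log2 fold change in I53A was -0.26 ± 0.17 (edgeR adjusted p = 0.288), or an edgeR adjusted p of 0.000379 with the replicate block.

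Set side by side, 10 of the 32 members tested in both comparisons (31.2%) were called in the same direction in both, beside 15.4% of all 14589 genes tested in both (7.55% higher and 7.80% lower in both). The comparisons share no library. Wnt6, Wnt11, Wnt16, Fzd10, Sfrp2 and Lef1 were higher in both, and Fzd7, Lrp5, Sfrp1 and Sfrp4 lower in both. Wnt16 in both sets and Lef1 in set 1 passed the filter through the mutant libraries alone. The calls of Wnt16 in both sets, Fzd10 in set 1, and Wnt11 and Sfrp4 in set 2 were lost in some fits that left out 1 library. A further 8 members tested in set 1 without a call rose in libraries labelled QKO, and 2 fell, beside 16.8% and 19.0% of all genes tested in both. The difference of effects was called for 13 of 38 members tested, 9 with a higher value in I53A (Wnt6, Wnt7b, Wnt11, Fzd2, Fzd7, Fzd9, Axin1, Axin2 and Lef1) and 4 with a lower one (Wnt7a, Fzd3, Sfrp1 and Tcf7l1), beside 18.0% and 18.1% of all genes tested in those directions. In set 1, groups that did not overlap were found for 17 of the 37 tested members above wild type and 6 below. The share of all genes there was 49.2% (25.5% above and 23.7% below). In set 2, such groups were found for 15 of the 33 tested members above and 6 below, beside 61.4% of all genes (30.2% above and 31.2% below). Of the tested members, 10 in set 1 and 6 in set 2 passed the filter through the mutant libraries alone. A direction was built into those, so these counts are descriptions.

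Genes of the pathway outside these classes, 66 in a list of secretion factors, R-spondins, receptors of the planar branch, Dishevelled, destruction complex and beta-catenin cofactor genes, moved in both directions. In I53A 10 of 59 tested (16.9%) rose and 12 (20.3%) fell, with a median log2 fold change of 0.21, so the shares were near those of all genes. The largest gain was that of Prickle1 (2.41 ± 0.41), a planar polarity gene, followed by Dkkl1 (0.74), the receptor Ror2 (0.51) and the Groucho-related gene Aes (0.47). The largest falls were those of Prickle2 (-1.04 ± 0.13), the beta-catenin cofactor Pygo1 (-0.88), the polarity cadherin Celsr3 (-0.84) and Dvl2 (-0.65), which relays the signal from Frizzled. In libraries labelled QKO 13 of 59 (22.0%) rose and 25 (42.4%) fell, with a median of -0.13. Of all genes tested in set 2, 28.7% were called higher and 29.0% lower. Wls, the carrier that Wnt proteins need for secretion, rose by 1.77 ± 0.24 on the log2 scale (edgeR adjusted p = 5.36e-09), followed by Prickle1 (1.13), Rspo4 (0.88) and Bcl9l (0.57). The largest falls there were those of Pygo1 (-2.35 ± 0.27), the Dishevelled antagonists Dact1 (-1.38) and Dact3 (-1.21), and Notum (-1.22), which inactivates Wnt proteins by removing their lipid. Ctnnb1, which encodes beta-catenin, was not called in I53A (0.17 ± 0.10, edgeR adjusted p = 0.21) and was slightly lower in libraries labelled QKO (-0.19 ± 0.04, edgeR adjusted p = 1.38e-05).

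A list of 25 genes known as targets of the canonical branch in various tissues, none of them a member of the classes above and some shared with the list just described, had 7 of 21 tested higher and 2 lower in I53A, and 10 of 18 higher and 4 lower in libraries labelled QKO. Of all genes tested, 18.1% were called higher and 17.4% lower in set 1, and 28.7% higher and 29.0% lower in set 2. In I53A the homeobox genes Msx1 (3.03 ± 0.46) and Msx2 (2.16 ± 0.29) and the primitive streak gene T (2.15 ± 0.53) were among those that rose, while Mycn (-1.12 ± 0.09) and Ccnd1 (-0.43 ± 0.11) fell. In libraries labelled QKO Tnfrsf19 (1.46 ± 0.10), Msx2 (1.35 ± 0.21), Myc (0.59 ± 0.10) and Cdx1 (0.44 ± 0.12) had the largest gains. Mixl1 (-1.26 ± 0.44), Notum and Mycn (-0.69 ± 0.05) were among those that fell there, and Mycn fell in both comparisons. The streak and mesoderm list, which itself holds T and Mixl1, summed to 32.8 to 37.9 CPM in I53A and 11.4 to 14.7 CPM in wild type. Mixl1 was not called in I53A.

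Promoters are shown for 4 members that carry the gains: Dkk1 and Lef1, with the largest in I53A, Wnt11, called higher in both genotypes, and Wnt7a, with the largest ratio in libraries labelled QKO. They are the 250 bases before a RefSeq start in GRCm38.p6 (a later build than the mm9 of the counts), on the gene's strand, 5′ to 3′: Dkk1 at chr19:30549497-30549746 (- strand), Lef1 at chr3:131110047-131110296 (+ strand, the first of 4 listed starts), Wnt11 at chr7:98834862-98835111 (+ strand, the first of 2) and Wnt7a at chr6:91411354-91411603 (- strand). Capitals mark the TCF/LEF-type letters CTTTGAA as well as CTTTGAT and CTTTGT, searched on both strands; the 3 cannot share a start on the same strand.
Dkk1: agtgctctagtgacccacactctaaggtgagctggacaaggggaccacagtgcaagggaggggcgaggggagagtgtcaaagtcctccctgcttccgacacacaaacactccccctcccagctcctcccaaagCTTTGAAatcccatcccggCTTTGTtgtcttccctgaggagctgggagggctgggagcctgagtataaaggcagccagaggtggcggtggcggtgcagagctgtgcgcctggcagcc
Lef1: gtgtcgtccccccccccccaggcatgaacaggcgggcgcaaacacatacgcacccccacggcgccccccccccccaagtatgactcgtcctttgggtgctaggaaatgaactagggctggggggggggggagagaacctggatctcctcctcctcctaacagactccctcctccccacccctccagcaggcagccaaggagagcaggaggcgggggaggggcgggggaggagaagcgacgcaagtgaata
Wnt11: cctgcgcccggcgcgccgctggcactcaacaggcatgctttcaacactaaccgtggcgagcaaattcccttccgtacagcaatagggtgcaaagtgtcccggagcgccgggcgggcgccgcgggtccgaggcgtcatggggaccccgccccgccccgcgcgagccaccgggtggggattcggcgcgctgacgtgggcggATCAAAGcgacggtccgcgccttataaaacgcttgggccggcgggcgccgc
Wnt7a: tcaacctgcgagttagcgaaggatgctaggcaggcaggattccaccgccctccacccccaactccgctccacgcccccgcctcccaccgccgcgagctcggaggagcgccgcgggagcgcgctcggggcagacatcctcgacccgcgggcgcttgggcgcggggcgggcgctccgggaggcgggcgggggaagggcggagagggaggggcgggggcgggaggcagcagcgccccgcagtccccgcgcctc

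In the Dkk1 window CTTTGAA starts at position -117 and CTTTGT at -98, where -1 is the last base before the start. The Wnt11 window holds CTTTGAT on the opposite strand at -51, and the Wnt7a window and this Lef1 window hold none of the 3. CpG pairs numbered 6 for Dkk1, 11 for Lef1, 37 for Wnt11 and 34 for Wnt7a. Of the 14 members called higher by a log2 of at least 1 in either comparison, 12 were in the table, with 16 promoters. Any of the 3 motifs was found in 5 of those 16 (31.2%), and in 22.5% of all 32851 promoters of the same length. In the 39 promoters of all 31 members in the table the share was 25.6%. The median CpG number was 15 in the 16 promoters, 21 in the 39 and 6 in all. A match is only a run of letters, and no match says nothing about the factor.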

How the data were processed

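For each of the 12 RNA-seq libraries the authors deposited raw counts. Per the file headers, featureCounts 1.6.3 had counted read pairs for each gene name of a GENCODE annotation (NCBIM37, mm9), with no strand option, so antisense overlaps cannot be separated. Per the file headers the set 1 alignments carry TopHat and unique in their names and those of set 2 neither, and the submitters' processing notes name HISAT2, Bowtie2, SAMtools, featureCounts and DESeq2 without versions. Chromatin assays of the series were not used here.

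Counts were scaled by TMM, filtered with filterByExpr (about 0.562 CPM in set 1 and 0.506 CPM in set 2, in 3 libraries), and differences were taken from the edgeR quasi-likelihood test (edgeR 4.0.16, R 4.3.3), two-sided, with Benjamini-Hochberg adjustment over all genes tested and a threshold of 0.05. Each comparison used its own 6 libraries, and the difference of effects all 12 in 1 model. Log2 fold changes were computed from the deposited counts and carry the SE, taken from the fold change and the test statistic. CPM values come from the same deposited counts, divided by TMM-scaled totals over the 12 libraries. Where a group had 1 to 3 counts the ratio of summed counts has an exact 95% binomial interval, and a group at 0 was set to 3 counts in all. Intervals and floors cover counting error only.

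The members and the gene lists were chosen with earlier results of these data known. Values per library are given for members called with an absolute log2 fold change of at least 1 in either comparison, for the member with the highest level per length in a class and for members called in opposite directions. For Fzd7 they were added after its values were seen, and other members are given as means. Pathway genes outside the classes are named by the 4 largest called changes per direction, plus Ctnnb1, and a result this rule would name is not reported here. The code was tested on simulated counts. Same-numbered set 1 libraries deviated together (r = 0.346, 0.402 and 0.619 for replicates 1, 2 and 3 across genes), so blocked values stand beside set 1 results whose call they change. The pairing of replicates 1 and 2 is not settled, since I53A replicate 1 with wild-type replicate 2 gave r = 0.338 and I53A replicate 2 with wild-type replicate 1 gave 0.307, and the alignment names of these I53A libraries carry the numbers the other way round. A batch term for replicate 3 alone was therefore added after the data had been seen. Replicate 3 of set 1 also follows another file naming style and was treated as a possible batch. Alternatives were DESeq2 (version 1.42.0), its size factors, other filters, all 12 libraries in 1 fit, the replicate block and leaving out each library.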

Additional observations from a re-analysis of the deposited data

How the results depend on the processing

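Member counts kept within 1.5 times of their values under every alternative run, except the count of members with a lower effect in I53A than in QKO, which was 7 with the replicate block and 4 without it, and no member's call changed direction. Over all genes in set 1, 4371 were called higher and 4427 lower with the replicate block, and 4146 lower in replicates 1 and 2 only, where 15706 genes were tested, against 2808 and 2704 in all 6 libraries. Leaving out 1 library gave 8 to 12 members higher and 4 to 5 lower in I53A, 12 to 15 higher and 6 to 8 lower in libraries labelled QKO, and 6 to 9 higher and 3 to 5 lower for the difference of effects. Over all genes it gave 1996 to 3034 higher and 1832 to 2883 lower in set 1, and 3994 to 4346 higher and 4077 to 4397 lower in set 2. In set 2 same-numbered libraries did not deviate together (r = 0.0275, -0.009 and 0.0794), so the numbers do not pair them, and the replicate block added Tcf7 as a call (edgeR adjusted p = 0.0479). In set 1 the block added Lrp6, Tcf7, Wnt10a, Wnt7a, Fzd4 and Fzd9 and changed no other member's call. A term for replicate 3 alone, chosen after seeing the data, added the same 6 (adjusted p = 0.000577 to 0.0426) and called 4387 genes higher and 4434 lower. For the difference of effects the replicate block added Lrp5 (edgeR adjusted p = 0.0205), Lrp6 (0.0263), Sfrp4 (0.0367), Wnt5b (0.0441) and Fzd5 (2.92e-05). Other than where stated, the cause of a changed call was not tested. Depth limits the ligands most: Wnt2b, Wnt4, Wnt8b and Wnt16 rest on at most 60 counts in any group, and 8 members passed the filter in neither comparison.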
